A study of Mus musculus with 13 samples.

Results

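The genes described here are 35 genes of the lysosome, named for this purpose by symbol and grouped by role: cysteine proteases, other peptidases, glycosidases, lipid-handling proteins, membrane proteins, subunits of the proton pump, progranulin and the regulator Tfeb. Their values are H3K27ac, the acetylation of lysine 27 on histone H3 that marks active promoters and enhancers, measured by chromatin immunoprecipitation and sequencing in cultured mouse bone marrow-derived macrophages. Each region of the deposited mm10 table was assigned to every protein-coding gene whose body it overlapped, or otherwise to the nearest such gene within 100 kb, and the regions of a gene were summed. All 35 genes had a region and passed the filter on low values, of 14978 genes with a region and 13480 tested. They held 83 regions, of which 81 of 36621 were tested.

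All cells came from mice of the strain 129S6/SvEvTac with the genotype IL10-/-RAG2-/-, so the cells lack the gene for IL-10, and the donors lack mature T and B cells. Marrow precursors were grown in medium conditioned with M-CSF, the macrophage growth factor. There were 4 groups of 3 libraries from 3 independent macrophage pools. One group was untreated and one was given LPS, bacterial lipopolysaccharide, at 1 ng/mL for 195 min. The remaining groups were given the same LPS with IL-10, an anti-inflammatory cytokine, either for the whole 195 min (continuous) or in the last 30 min (late). The comparisons ask what LPS does to the mark at these genes and whether added IL-10 alters it. Bulk chromatin does not tell fewer marked cells from less mark per cell.

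The lysosome is the acidic compartment in which macrophages digest material taken up by phagocytosis, endocytosis and autophagy. A proton pump, the V-ATPase, acidifies it, and proteases, glycosidases and lipases then break down its contents. Many lysosomal genes carry an E-box-like element with the core CACGTG near their start, to which TFEB and its relatives bind.

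That element was searched in RefSeq promoter windows of GRCm38.p6, the assembly of mm10, each with 250 bases before and 50 bases after a gene start. The table held 34 windows for 29 of the 35 genes, and each of the 29 genes had an H3K27ac region over its window. The letters CACGTG were in 9 of the 34 windows (26.5%), against 7.15% of all 32851 windows. The longer TCACGTGA, which contains it, was in 4 (11.8%, against 0.974%). Both read the same on either strand. The 4 promoters with TCACGTGA are shown because they carry the longest match found, in the direction of transcription and with TCACGTGA in capitals. For Ctsd and Mcoln1 these are the 150 bases before the start of the gene. The starts used for Atp6v1a and Ctsa lie 443 and 901 bases inside the annotated gene, so 30 bases with the element are given. Ctsa has a second window, at the outer end of the gene, without CACGTG.
Atp6v1a, minus strand, chr16:44139373-44139402: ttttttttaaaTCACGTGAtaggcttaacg
Ctsd, minus strand, chr7:142387828-142387977: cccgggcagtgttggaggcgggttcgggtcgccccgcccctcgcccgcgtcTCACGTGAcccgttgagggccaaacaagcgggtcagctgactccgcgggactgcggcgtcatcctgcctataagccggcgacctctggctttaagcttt
Mcoln1, plus strand, chr8:3500369-3500518: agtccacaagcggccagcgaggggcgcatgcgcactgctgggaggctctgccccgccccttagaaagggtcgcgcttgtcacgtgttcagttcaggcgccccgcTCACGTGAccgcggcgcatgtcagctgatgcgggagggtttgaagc
Ctsa, plus strand, chr2:164833743-164833772: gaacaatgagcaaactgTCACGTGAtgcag

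The element begins 132, 99, 46 and 13 bases before the start that the window was built on, in that order. The same Ctsa window holds TCACGTGA again, beginning 4 bases after that start and outside the bases shown. A match of letters is not a measured binding site.

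The libraries held 5149730 to 26922552 reads in 40691 regions. The smallest value of every library was 1 read, and 19.7% to 29.9% of its regions lay exactly there. A region at this floor is not shown to lack the mark, because the sources used here do not say whether input was subtracted. Replicate 3 was the deepest library of each group. Untreated replicate 3 was the highest of its group for 26 of the 35 genes and 75.1% of all genes tested, and LPS replicate 3 for 20 and 63.4%. All 10 macrophage markers listed, among them Csf1r, Mpeg1 and Spi1, had regions above the floor in every group. Their summed signal was 44139 to 58499 untreated and 47281 to 72105 with LPS. Of the other cell types, the summed signal of 3 B cell markers was 2509 to 3246 untreated and 1552 to 2046 with LPS, that of 5 neutrophil markers 2821 to 3899 and 2249 to 2526, and that of 4 T cell markers 368 to 527 and 282 to 316. Untreated, 2 of those 4 T cell markers and 1 of the 5 neutrophil markers lay at the floor. For 6 osteoclast markers, read because osteoclasts also use Atp6v0d2, the sums were 7463 to 10953 and 9643 to 13820. For 4 dendritic cell markers they were 5348 to 6395 and 3872 to 9685, and for 4 fibroblast markers 7251 to 9770 and 6095 to 13775, with 2 of the 4 fibroblast markers at the floor untreated and 1 with LPS. Fitted one by one for LPS against untreated, 3 of 10 macrophage markers were lower and 2 higher, 2 of 4 dendritic cell markers lower and 1 higher (median log2 difference -1.12), and 2 of the 4 neutrophil markers tested lower and 1 higher (median -1.42). Of the 4 T cell markers tested, 2 were higher, 1 marker was called each way among the osteoclast and the fibroblast markers, and none of the 3 B cell markers was called. The part of such cells in the results was not tested.

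LPS lowered the mark at 17 of the 35 genes (48.6%), against 13.3% of all genes tested, and raised it at 1, Ctsc, against 14.2%. These calls used limma on log2(value + 1) at a Benjamini-Hochberg adjusted p under 0.05, and every adjusted p in this text is from limma unless edgeR is named. The median log2 difference of the 35 genes was -1.10, beside -0.11 over all genes tested, and 29 of the 35 lay below 0. At 18 genes every LPS library lay below every untreated library, as at 19.2% of all genes, and at none did every LPS library lie above (17.7%). The falls covered 5 of 6 membrane proteins, 4 of 8 cysteine proteases, 3 of 6 lipid-handling genes, 2 of 4 pump subunits, 1 of 3 other peptidases, 1 of 6 glycosidases and Tfeb. With the replicate number as a block, 23 genes were lower (23.4% of all genes) and 1 higher (20.1%), the added falls being Ctsa, Ctsb, Ctsh, Gusb, Hexa and Atp6v0a1. With edgeR, 16 were lower (13.2% of all genes), Gusb among them and Lgmn and Ctsl not, and 1 was higher (16.9%), which was Ctsz (adjusted p = 0.0451) and not Ctsc. Leaving out 1 library at a time gave 12 to 20 lower genes, and 11 stayed lower each time: Ctsd, Ctsk, Ctss, Lgmn, Lamp1, Scarb2, Npc1, Psap, Man2b1, Atp6v0d2 and Atp6v1a. Ctsk and Ctss share the region that makes up nearly all of both sums. Every count of genes in this text that holds both therefore holds that measurement under both names. Of the 9 genes with CACGTG in a promoter window, 6 fell, and of the 20 with a window but without these letters, 9 fell and 1 rose.

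**Figure D1:**
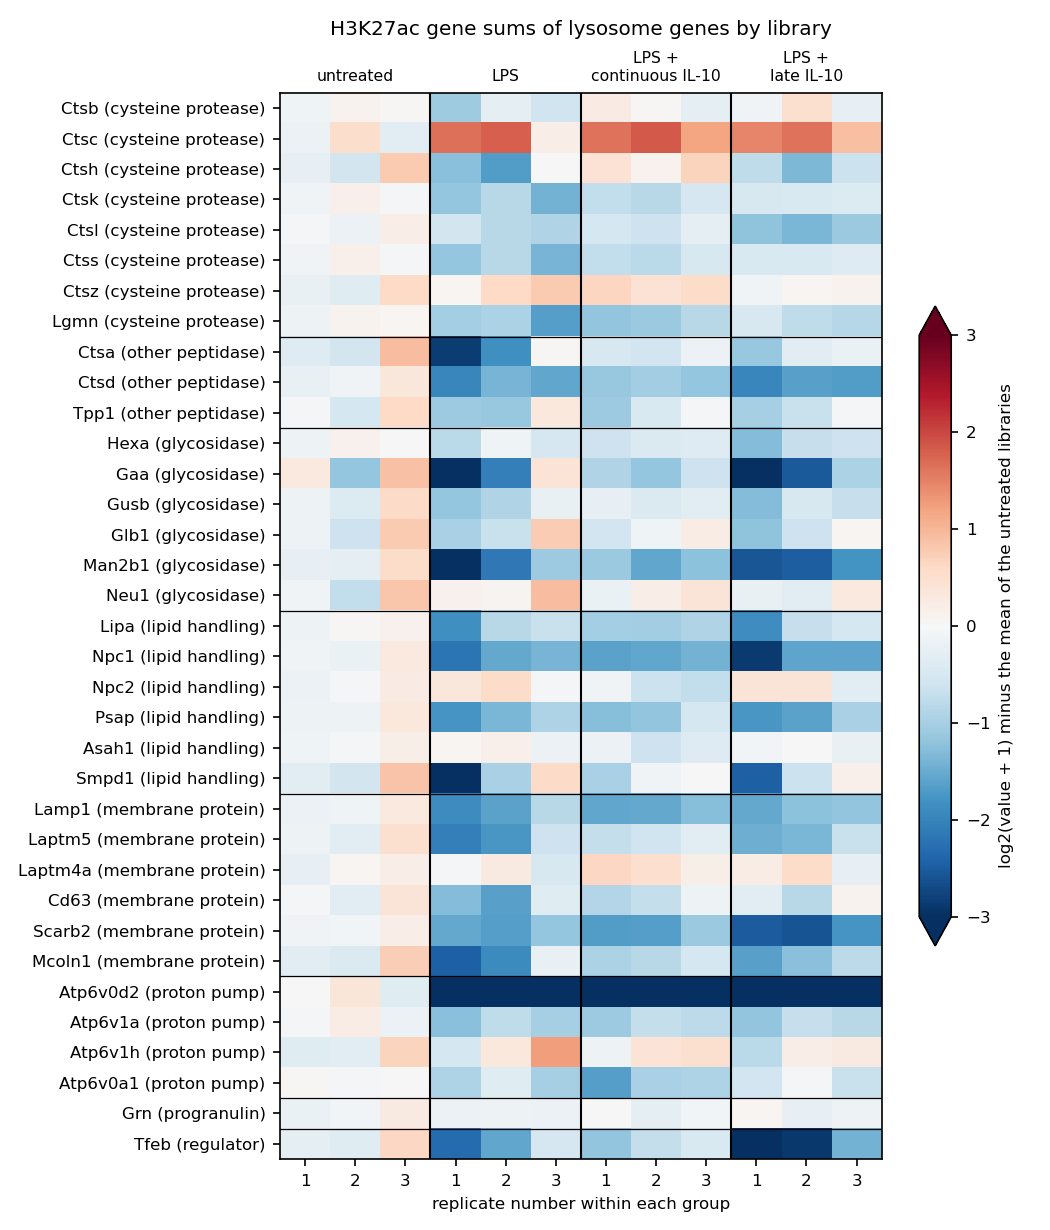
Heat map of the 35 lysosome genes (lines, grouped by role) in 12 libraries (columns, 3 replicates for each of 4 groups), with the colour giving log2(value + 1) minus the mean of the untreated libraries. Most lines turn blue in the LPS columns and remain blue with IL-10, Atp6v0d2 most of all, while Ctsc turns red.

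**Figure D2:**
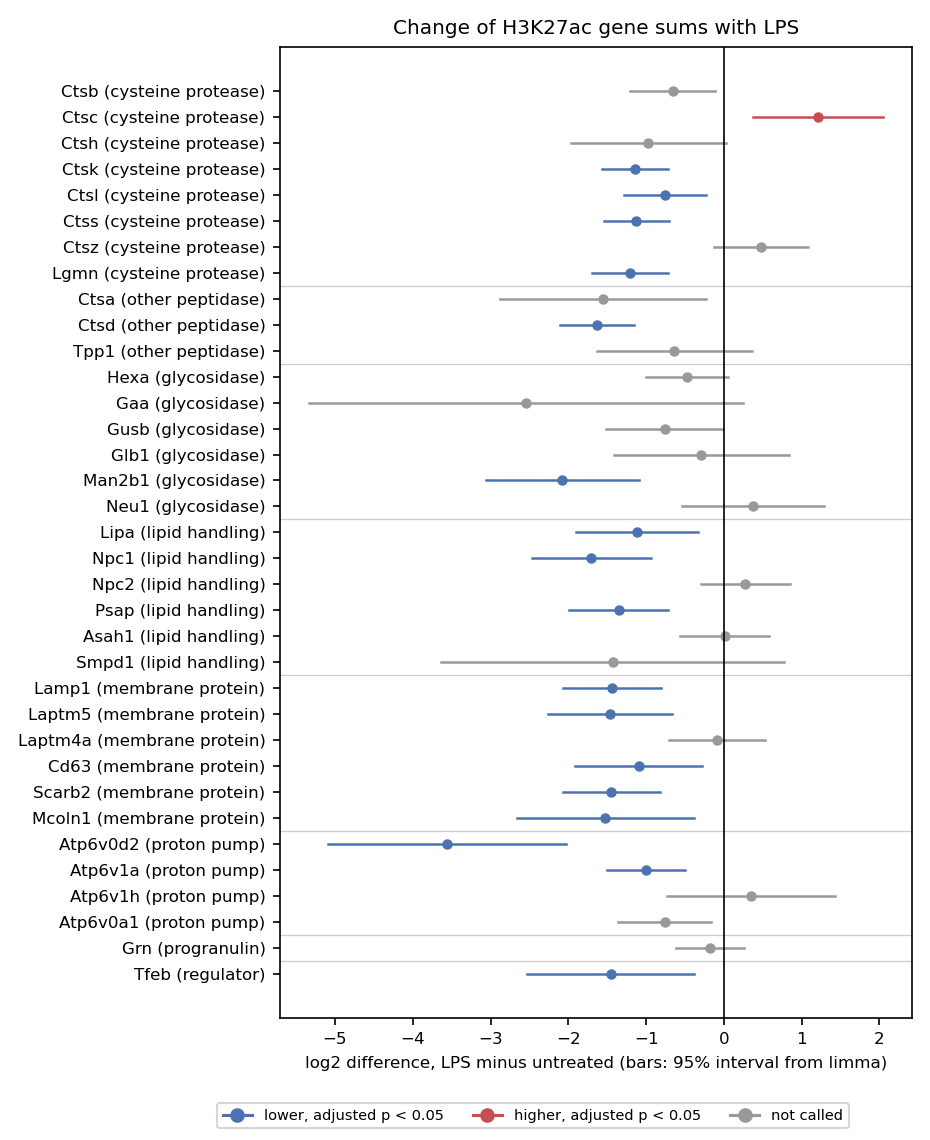
Log2 difference of each gene sum, LPS minus untreated (points), with its 95% interval (bars), coloured by the limma call. The 17 called falls lie between -3.55 for Atp6v0d2 and -0.76 for Ctsl, and Ctsc at 1.21 is the called rise.

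Among the cysteine proteases, which cut proteins in the acidic lumen, the smallest adjusted p came from a locus on chromosome 3. Ctsk, which encodes a collagen-degrading cathepsin, had 1 region, chr3:95492946-95536547, which also spans its neighbours Ctss and Arnt. Its values were 7665, 9213 and 8000 untreated, then 3697, 4626 and 3073 with LPS. The groups did not overlap, and the log2 difference was -1.14 (SE 0.20, adjusted p = 9.23e-04). Ctss encodes cathepsin S, which trims the invariant chain in antigen presentation, and the same region made up 99.96% of its untreated sum. Its difference of -1.12 (SE 0.20, adjusted p = 9.89e-04) is therefore not a second measurement. The other region of Ctss, chr3:95539597-95544250 inside the gene, went the other way, from 0.707, 1.26 and 9.21 to 27.5, 53.8 and 60.7. It rose by 3.75 (SE 1.13, adjusted p = 0.0200). Untreated replicates 1 and 2 lie at 1 read there, so the size of this rise depends on the pseudocount. The adjusted p was 0.0805 or 0.0664 when untreated replicate 1 or 2 was left out, and 0.0592 when LPS replicate 2 was.

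Lgmn, the gene of the asparaginyl endopeptidase that activates other lysosomal proteases, gave 6331, 7501 and 7264 untreated and 3441, 3635 and 2226 with LPS. Its LPS libraries were all lower, by a log2 difference of -1.21 (SE 0.23, adjusted p = 0.00155). The call was lost with edgeR (adjusted p = 0.0507). All 3 of its regions fell, by amounts not tested against each other. The promoter region chr12:102429630-102465861 had a log2 difference of -1.09, the internal region chr12:102413981-102426848 of -2.62 and the region at the far end, chr12:102390412-102399568, of -5.76 (adjusted p = 0.00231, 4.82e-04 and 3.08e-04). The last overlaps Rin3 as well and went from 227, 158 and 148 to 1.97, 1.68 and 3.25. LPS replicates 1 and 2 lie at 1 read there, so the size of its fall depends on the pseudocount.

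Ctsl, encoding cathepsin L, gave 1168, 1069 and 1387 untreated and 822, 672 and 646 with LPS. The groups were apart, with a log2 difference of -0.76 (SE 0.24, adjusted p = 0.0334). That call held without LPS replicate 1 only, ended without each of the other 5 libraries (adjusted p = 0.0526 to 0.111) and was lost with edgeR.

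Ctsc, whose product cathepsin C activates the serine proteases of granules, was the one gene that rose. It gave 3928, 6452 and 3498 untreated and 13948, 15504 and 5126 with LPS. LPS replicate 3 lay inside the untreated range, so the groups overlapped. The log2 difference was 1.21 (SE 0.39, adjusted p = 0.0323), and the adjusted p was 0.108 or 0.116 when untreated replicate 1 or 3 was left out, and 0.134 or 0.141 when LPS replicate 1 or 2 was. It was also lost with median centring (adjusted p = 0.153) and with edgeR (adjusted p = 0.0848). One region of 96414 bp, chr7:88191692-88288105 with the promoter, made up 95.5% of the untreated sum. The region chr7:88327330-88330377, which is 11469 bp beyond the gene, went from 19.8, 22.7 and 28.5 to 159, 197 and 64.5. That rise of 2.39 had an adjusted p of 0.00966 and 0.0519 without LPS replicate 2.

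Ctsb, Ctsh and Ctsz did not pass the test as gene sums, with log2 differences of -0.66, -0.97 and 0.48. Single regions of Ctsb and Ctsh did, and are named here after their values were seen. A region over Ctsb that also overlaps Fdft1 made up 80.5% of its untreated sum, and every Ctsb sum in this text includes it. The region chr14:63095650-63108300, outside Ctsb and nearest to it, fell from 1280, 1145 and 668 to 63.0, 28.6 and 86.7 (log2 difference -4.18, adjusted p = 9.36e-05). Inside Ctsh, an aminopeptidase gene, 3 of the 4 regions fell by 3.00 to 3.46, and the fourth differed by -0.07. In chr9:90066281-90068928 and chr9:90074533-90076916, LPS replicates 1 and 2 lie at 1 read, so the sizes of those falls depend on the pseudocount.

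Of the other peptidases, Ctsd had the smallest adjusted p of all 35 genes. It encodes cathepsin D, the main aspartic protease of the lysosome, and had the highest untreated signal per kb of its regions, 254. Its values were 6866, 7541 and 10174 untreated and 2090, 3087 and 2737 with LPS, with no overlap. Its 1 region, chr7:142377800-142410007, spans the promoter shown above, and it fell by 1.63 (SE 0.22, adjusted p = 1.71e-04). Ctsa, the protective protein of the glycosidase complex, whose region Neurl2 shares, gave 546, 487 and 1357 untreated and 98.4, 198 and 729 with LPS. The groups overlapped through replicate 3, and the difference of -1.55 (95% interval -2.87 to -0.22) had an adjusted p of 0.0794 and 0.00529 with the replicate block. Tpp1, a tripeptidyl peptidase gene, differed by -0.64 as a sum, and its promoter region, shared with Dchs1, fell by 1.61 (adjusted p = 0.0186). That adjusted p was 0.0580 or 0.0530 when untreated replicate 1 or 3 was left out, and 0.0739 when LPS replicate 1 was.

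Man2b1, encoding lysosomal alpha-mannosidase, was the glycosidase gene that fell. Its promoter region is shared with Wdr83 and Wdr83os. Its values were 846, 832 and 1472 untreated and 126, 229 and 473 with LPS. The highest LPS library was below the lowest untreated one, and the log2 difference was -2.08 (SE 0.46, adjusted p = 0.00433). The other 5 glycosidase genes lay between -2.55 for Gaa, the acid alpha-glucosidase gene, and 0.37 for Neu1, a sialidase gene. Gaa spanned 231, 84.5 and 350 untreated and 1.97, 45.4 and 252 with LPS, where the first LPS value is a single read. Its interval was -5.34 to 0.24.

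Among the lipid-handling genes, 3 fell and 3 did not pass the test. Npc1 encodes the membrane protein that exports cholesterol from the lysosome, and gave 2264, 2123 and 2948 untreated and 529, 837 and 926 with LPS. Its fall of 1.70 (SE 0.36, adjusted p = 0.00321) had no overlap between groups. Npc2, the gene of its soluble partner, whose region Isca2 shares, differed by 0.28 (95% interval -0.30 to 0.85). The difference between these partners was not tested.

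Psap, the precursor of the saposins that help degrade sphingolipids, gave 8577, 8517 and 11828 untreated and 2794, 3695 and 5018 with LPS. It fell by 1.35 (SE 0.29, adjusted p = 0.00404), again without overlap. Lipa, the lysosomal acid lipase gene, gave 2418, 2792 and 2944 and then 759, 1521 and 1694. Its fall of 1.11 (SE 0.36, adjusted p = 0.0355) held without LPS replicate 3 and ended without each of the other 5 libraries (adjusted p = 0.0522 to 0.167). Asah1, the acid ceramidase gene, differed by 0.01 and Smpd1, the acid sphingomyelinase gene, by -1.43 with an interval of -3.64 to 0.78. A region inside Asah1, close to an end of the annotated gene, also overlaps Frg1. This region, chr8:41393514-41397568, rose from the floor to 256, 222 and 36.6, at least 71.8-fold. Asah1 had no promoter window, so the region was not placed against its start. This region was picked after its values were seen.

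Of the membrane protein genes, 5 of 6 fell. Lamp1, an abundant glycoprotein of the lysosomal membrane, gave 1757, 1829 and 2441 untreated and 537, 657 and 1112 with LPS (log2 difference -1.44, SE 0.29, adjusted p = 0.00277). Laptm5, a transmembrane protein of blood cells, gave 2097, 1846 and 3261 and then 565, 696 and 1519 (-1.47, SE 0.37, adjusted p = 0.00965, and 0.0515 without LPS replicate 1). In both genes all LPS libraries were below all untreated ones.

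Scarb2 encodes LIMP-2, the receptor that carries glucocerebrosidase to the lysosome. It gave 2283, 2332 and 2833 untreated and 848, 785 and 1114 with LPS, a fall of 1.45 (SE 0.29, adjusted p = 0.00241) without overlap. Of its 5 regions, 2 fell. The promoter region chr5:92496936-92512379 fell by 1.77 (adjusted p = 0.00112). The region chr5:92522226-92532353, which lies 16569 bp outside the gene, went from 449, 231 and 549 to 1 read in each LPS library, at least 99.59-fold lower in the deposited values. It stayed at 1 read in all 6 libraries with IL-10. The 3 other regions, all inside the gene, differed by -0.57 to -0.70 and did not pass the test.

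Mcoln1, the gene of the calcium channel TRPML1, gave 460, 420 and 958 untreated and 104, 151 and 487 with LPS. LPS replicate 3 exceeded untreated replicates 1 and 2, and the difference was -1.52 (SE 0.53, adjusted p = 0.0473). Pnpla6 shares 1 of the 2 Mcoln1 regions, and without shared regions the call was lost (-1.41, adjusted p = 0.0727). Cd63, a tetraspanin gene, differed by -1.10 (adjusted p = 0.0452). Both calls held only without LPS replicate 3 and ended without each of the other 5 libraries (adjusted p = 0.0599 to 0.201 for Mcoln1 and 0.0539 to 0.195 for Cd63). Laptm4a, the sixth gene of the group, differed by -0.09 (95% interval -0.70 to 0.52).

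**Figure D3:**
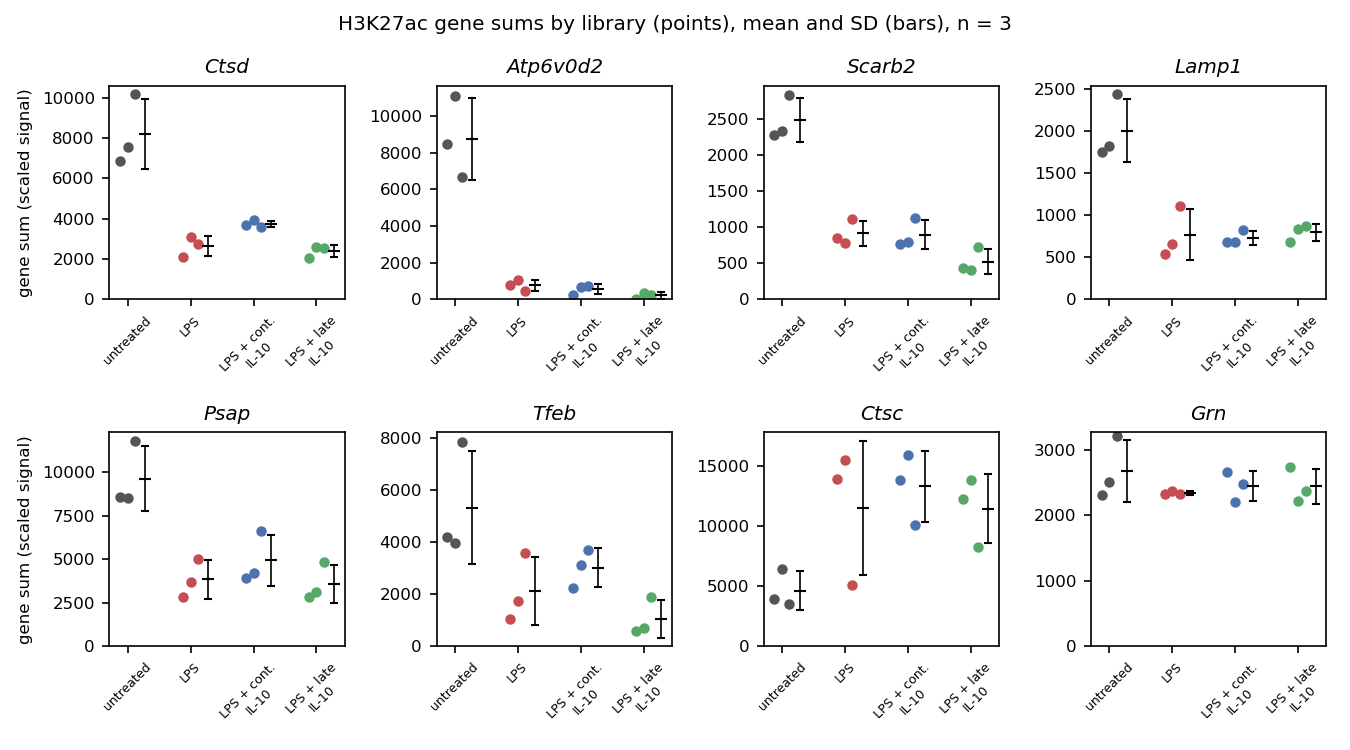
Gene sums of deposited signal for 8 lysosome genes in each library (points) with mean and SD of 3 libraries (bars), on linear axes from 0. Ctsd, Atp6v0d2, Scarb2, Lamp1 and Psap are below every untreated library in all 9 treated libraries, Ctsc is higher in 8 of the 9 and Grn overlaps in every group.

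Of the proton pump genes, 2 fell and 2 did not pass the test. Atp6v0d2 encodes a subunit of the membrane sector that is prominent in macrophages and osteoclasts. It gave 8475, 11077 and 6666 untreated and 769, 1039 and 481 with LPS, the largest fall of the 35 genes at -3.55 (SE 0.71, adjusted p = 0.00241). All 4 of its regions fell and none overlapped between groups. The widest, chr4:19834564-19904972, which also overlaps Slc7a13, fell by 3.38. The region chr4:19937784-19952678, 15218 bp outside the gene, went from 862, 797 and 581 to 1 read in each LPS library, at least 181.5-fold lower.

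Atp6v1a encodes the catalytic subunit of the cytosolic sector. It gave 3323, 3941 and 2979 untreated and 1423, 2003 and 1703 with LPS, a fall of 1.00 (SE 0.23, adjusted p = 0.00576) without overlap. The called fall was in an internal region. This region, chr16:44114574-44129990, went from 1739, 2226 and 1165 to 303, 482 and 172 (log2 difference -2.49, adjusted p = 6.94e-04). The region over the promoter window searched above, chr16:44130029-44144463, which Naa50 shares, differed by -0.29 and did not pass the test. Whether the regions differ from each other was not tested.

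Atp6v0a1 and Atp6v1h did not pass the test as sums, at -0.76 (adjusted p = 0.0579) and 0.35. Atp6v0a1, a further membrane-sector subunit, held regions of opposite sign, picked after their values were seen. The internal region chr11:101051047-101055372 rose from 1 read in each untreated library to 112, 175 and 30.6, at least 44-fold. The region chr11:101059323-101071378, shared with Naglu, fell from 599, 521 and 833 to 13.8, 111 and 343 (log2 difference -2.95, adjusted p = 0.0168, and 0.0552 without untreated replicate 3).

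Grn, the gene of progranulin, a glycoprotein that reaches lysosomes and is cut into granulins there, gave 2313, 2506 and 3219 untreated and 2332, 2380 and 2333 with LPS. The groups overlapped, and the difference was -0.18 (SE 0.20, 95% interval -0.62 to 0.26, adjusted p = 0.586). Tfeb, the regulator of lysosomal genes, gave 4171, 3952 and 7824 and then 1019, 1722 and 3572. Its LPS libraries were all below its untreated ones. The fall of 1.45 (SE 0.50, adjusted p = 0.0439) held without LPS replicate 3 and ended without each of the other 5 libraries (adjusted p = 0.0629 to 0.196), and its adjusted p was 1.51e-04 with the replicate block.

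Counted by region, LPS lowered 29 of the 81 tested regions (17.9% of all regions tested) and raised 7 (16.5%). Over promoter windows, 13 of 29 fell and 1 rose, against 9.02% and 10.6% of all regions over promoters. Elsewhere in the genes 11 of 36 fell and 3 rose, and outside them 5 of 16 fell and 3 rose. Away from promoters, 20.8% of all regions fell and 18.4% rose. Ctsb, Ctsh, Npc1, Asah1, Atp6v0d2 and Atp6v1h had no promoter window, so their regions were counted as elsewhere in the genes or outside them. The Ctsb region shared with Fdft1 spans the whole gene, and regions of Ctsh, Npc1, Atp6v0d2 and Atp6v1h lie over a gene end. The counts elsewhere and outside can therefore include regions over gene starts, and are not read against the shares away from promoters. Leaving out 1 library gave 3 to 7 risen regions, with 3 or 4 when untreated replicate 1 or 2 was left out and 4 or 3 when LPS replicate 1 or 2 was.

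**Figure D4:**
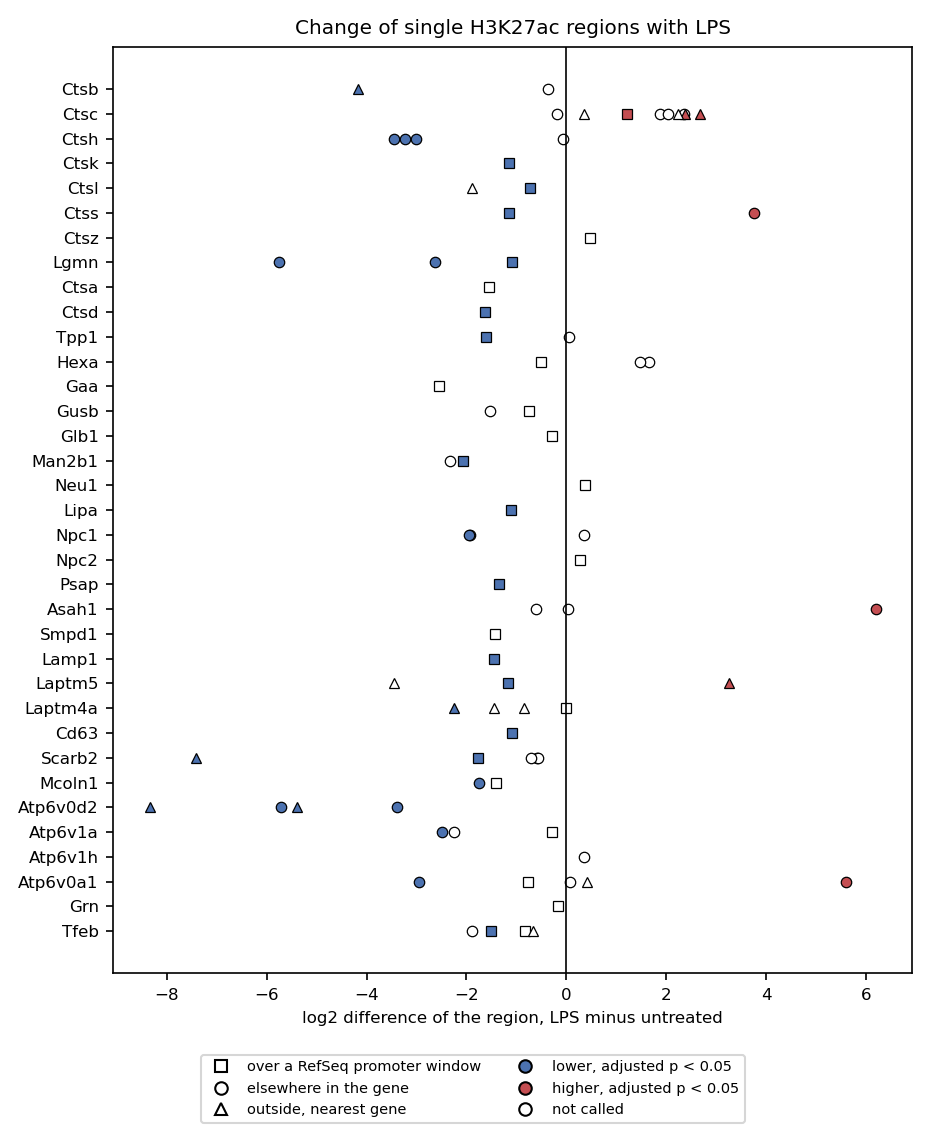
Log2 difference with LPS of each tested region of the 35 genes, with squares for regions over a RefSeq promoter window, circles for others in the gene, triangles for those outside it, and fill for the limma call. Regions of Atp6v0d2, Scarb2 and Lgmn lie farthest to the left, and those of Asah1 and Atp6v0a1 farthest to the right. Where 1 group lies at 1 read, the size depends on the pseudocount.

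Added IL-10 gave few called differences from LPS alone, at these genes as over all genes tested. With continuous IL-10, no gene of the 35 was called higher or lower than with LPS alone, where 2.59% and 3.17% of all genes were. At an unadjusted p under 0.05, 6 were higher and 1 lower, against 7.24% and 11.5% of all genes. With edgeR 1 was higher, Ctsh (log2 difference 1.29, adjusted p = 0.0396), and none lower, against 2.17% and 2.49% of all genes. The median difference was 0.28, beside 0.03 over all genes, and 27 of 35 lay above 0. The libraries did not overlap at 5 genes that were higher and 1 that was lower, against 8.09% and 13.2% of all genes. With the replicate block, Ctsh (1.37, adjusted p = 0.00344), Laptm5 (0.91, adjusted p = 0.00995) and Ctsb (0.67, adjusted p = 0.0372) were higher and Npc2 (-0.77, adjusted p = 0.0289) lower. The block raised the share of all genes called to 7.33% and 10.2%. Without LPS replicate 3, 4 genes were higher and 1 was lower.

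Both IL-10 comparisons used the same LPS libraries. Ctsd gave 3684, 3915 and 3612 with continuous IL-10, all above its LPS values of 2090 to 3087 and all below the untreated 6866 to 10174. Its difference of 0.52 from LPS (95% interval 0.04 to 1.00) had an adjusted p of 0.216. Laptm5 gave 1421, 1533 and 1825 beside 565, 696 and 1519 with LPS, so that the groups overlapped at 1 library. Lamp1 differed by -0.01 (95% interval -0.64 to 0.62) and Scarb2 by -0.04 (-0.66 to 0.59), and both stayed below all untreated libraries.

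Some single regions passed the test with continuous IL-10. Of the 81 regions, 5 were called higher (3.28% of all regions) and none lower (3.24%). With edgeR, 2 were higher (2.22%) and none lower (2.81%), and at an unadjusted p under 0.05, 11 were higher and 5 lower (9.06% and 10.5% of all regions). The 5 regions were picked after their values were seen. At Ctsh, the 3 internal regions that LPS had lowered were higher, by 2.85, 2.88 and 3.61 (adjusted p = 0.0214, 0.0413 and 0.0233). The sizes 2.88 and 3.61 depend on the pseudocount, because LPS replicates 1 and 2 lie at 1 read in those regions. The first, chr9:90058409-90062217, gave 227, 174 and 200 untreated and 11.8, 33.6 and 34.3 with LPS. Continuous IL-10 gave 185, 169 and 183, and late IL-10 gave 29.9, 12.5 and 56.7. The third, chr9:90074533-90076916, gave 47.4, 37.8 and 60.3, then 1.97, 1.68 and 16.2, then 67.4, 62.2 and 57.2, and 1 read in each late library. At these 2 regions the continuous libraries overlapped the untreated ones, and the late libraries overlapped those with LPS alone.

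The other 2 such regions lie outside Ctsb and Laptm4a. The Ctsb region named above gave 199, 250 and 388 with continuous IL-10, a rise of 2.29 over LPS (adjusted p = 0.0237). The region chr12:8879014-8881942, nearest to Laptm4a, a gene of a lysosomal membrane protein, gave 150, 141 and 117 beside 3.94, 8.40 and 35.7 with LPS, a rise of 3.51 (adjusted p = 0.0163). All 5 calls ended without some libraries. None of the 5 held without LPS replicate 1 or without continuous replicate 2, and 2, 1 and 1 regions were called without LPS replicate 2, continuous replicate 1 and continuous replicate 3. Without LPS replicate 3 there were 8.

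**Figure D5:**
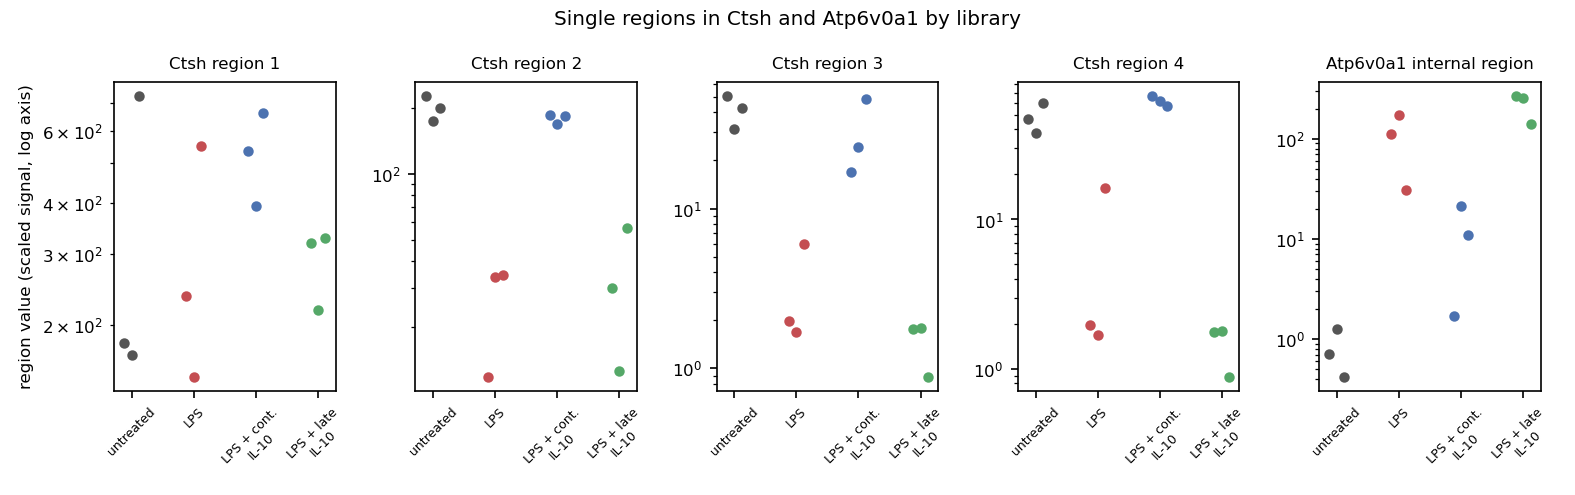
Deposited signal of the 4 regions of Ctsh, numbered along the chromosome, and of the internal region of Atp6v0a1 in each library (points), on log axes. Ctsh regions 2 to 4 are high untreated and with continuous IL-10 and low with LPS and late IL-10, and the Atp6v0a1 region is highest with LPS and late IL-10, lower with continuous IL-10 and at 1 read untreated.

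With late IL-10 no gene sum of the 35 was called either, with 3.19% of all genes higher and 0.26% lower than with LPS alone. At an unadjusted p under 0.05, 4 were higher and 2 lower (7.8% and 4.47% of all genes), and edgeR called none (2.61% and 0.2% of all genes). The groups did not overlap at 4 genes that were higher and 3 that were lower, against 7.62% and 7.17%. The median difference was 0.05, beside -0.16 over all genes. Median centring moved the median of all genes by 0.11 in this comparison and by 0.14 for late IL-10 against untreated, so differences under that size carry no direction. With the block, 4 genes were higher, Ctsb (0.70), Ctsk (0.69), Ctss (0.68) and Cd63 (0.75), and 2 were lower, Scarb2 (-0.84, adjusted p = 0.0148) and Tfeb (-1.03, adjusted p = 0.0120), against 6.73% and 3.01% of all genes. Without LPS replicate 2, Ctsk and Ctss were higher. No region of the 81 was called (3.14% of all regions higher, 0.396% lower), and edgeR called none (2.27% and 0.248%). At an unadjusted p under 0.05, 8 regions were higher and 4 lower (8.28% and 4.42% of all regions).

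Ctsk gave 5952, 5986 and 6255 with late IL-10, all above its LPS values of 3073 to 4626 and below the untreated 7665 to 9213. Its difference of 0.69 (SE 0.20) from LPS had an adjusted p of 0.0831. Scarb2 gave 439, 409 and 726, all below its LPS values of 785 to 1114. Tfeb gave 576, 681 and 1883, which overlapped its LPS values of 1019 to 3572. Atp6v0d2 gave 33.5, 369 and 244, below the LPS range of 481 to 1039, with a difference of -2.32 (SE 0.71, adjusted p = 0.116). Without the region shared with Slc7a13 the sign turned, to 1.66 (adjusted p = 0.568), so no direction is read from it.

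Set against untreated cells, the groups with IL-10 were compared gene by gene, and all 3 such comparisons share the untreated libraries. With continuous IL-10, 11 genes were lower (8.93% of all genes) and Ctsc higher (8.62%). With late IL-10, 14 were lower (15.4%) and Ctsc higher (15.7%). With continuous IL-10, Ctsd, Lgmn, Npc1, Lamp1, Scarb2 and Atp6v0d2 stayed lower whichever library was left out, while the calls of Atp6v0a1, Atp6v1a, Ctsk, Ctss and Psap each ended in some case (highest adjusted p = 0.0520, 0.0929, 0.122, 0.123 and 0.131). With late IL-10, Atp6v0d2, Ctsd, Scarb2, Npc1, Ctsl, Man2b1, Tfeb, Psap and Lamp1 stayed lower each time, while those of Atp6v1a, Hexa, Laptm5, Lgmn and Lipa ended in some case (highest adjusted p = 0.0545, 0.0853, 0.114, 0.0975 and 0.232). With edgeR the continuous calls of Ctsc, Lgmn, Ctsk, Ctss and Atp6v1a ended (adjusted p = 0.101, 0.0798, 0.205, 0.208 and 0.0854), and Man2b1 was lower and Ctsz higher (adjusted p = 0.0165 and 0.0499). Median centring ended those of the same 5 genes and of Atp6v0a1 (adjusted p = 0.0540 to 0.277), and Man2b1 was lower there too (0.0157). For late IL-10, edgeR ended the calls of Ctsc, Lgmn, Hexa, Lipa and Atp6v1a (adjusted p = 0.0696 to 0.275), as did median centring (0.0642 to 0.288). Mcoln1 was then lower with both (0.0363 and 0.0272), and Gusb with centring (0.0436). Beside -3.55 with LPS alone, Atp6v0d2 stood at -4.08 with continuous and -5.87 with late IL-10 (adjusted p = 0.00157 and 7.04e-05). Scarb2 stood at -1.45, -1.48 and -2.28, Ctsd at -1.63, -1.11 and -1.76, and Npc1 at -1.70, -1.52 and -2.01, each called in all 3 comparisons. Tfeb stood at -1.45, -0.78 and -2.48, with an adjusted p of 0.359 for continuous and 0.00215 for late IL-10, and in both groups all libraries lay below all untreated ones. Ctsc stood at 1.21, 1.55 and 1.33. Its call with continuous IL-10 ended without untreated replicate 1, untreated replicate 3 or continuous replicate 2 (adjusted p = 0.0602, 0.0615 and 0.0637), and that with late IL-10 ended without untreated replicate 1 or 3 or late replicate 1 or 2 (adjusted p = 0.0682 to 0.0798). With continuous IL-10 the count of lower genes was 7 without untreated replicate 1 or 2 and 6 without continuous replicate 1.

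The 2 schedules of IL-10 were compared directly. No gene sum differed by the test (1.88% of all genes higher with late IL-10, 0.668% lower), and edgeR called none (0.668% and 0.386%). An unadjusted p under 0.05 was reached by 2 that were higher and 6 that were lower (10.9% and 6.71% of all genes). The median was -0.35, beside -0.12 over all genes. Tfeb gave 2222, 3097 and 3693 with continuous and 576, 681 and 1883 with late IL-10, without overlap, and the difference was -1.70 (SE 0.50, adjusted p = 0.0858, and 0.0137 without late replicate 3). With the block it had an adjusted p of 3.80e-04, and Ctsd, Ctsh, Ctsl, Man2b1 and Scarb2 were lower too (-0.65 to -1.32), with Atp6v0a1 higher (0.75). That is 6 lower and 1 higher, against 7.17% and 9.69% of all genes with the block. Of the 81 regions, 1 was higher with late IL-10 (1.86% of all regions) and 3 were lower (0.852%).

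A further 69 lysosomal genes, listed with earlier results known, give the setting. Of 68 tested, 21 fell and 6 rose with LPS (13.3% and 14.2% of all genes), with a median of -0.50 beside -0.11 over all genes. The smallest adjusted p belonged to Clcn7, a chloride-proton exchanger gene whose region also overlaps Ptx4, which rose from 514 ± 116 to 5484 ± 1812 (SD, n = 3), a log2 difference of 3.38. Gnptab, the gene of the enzyme that starts the mannose-6-phosphate tag, which shares a region with Dram1, rose by 1.25. Gpnmb, a glycoprotein gene, fell by 2.38, Rragc, a GTPase gene of nutrient sensing, by 1.73, Ppt1, a thioesterase gene that shares a region with Cap1, by 1.90 and Fnip2, a folliculin-interacting protein gene, by 1.18.

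With continuous IL-10, 4 of the 68 were higher than with LPS alone and 1 was lower (2.59% and 3.17% of all genes). Fnip2 gave 1967 ± 86 with LPS and 5232 ± 257 with continuous IL-10 (SD, n = 3), a rise of 1.41, and its untreated level was 4480 ± 486. Ppt1 rose by 1.90, Pla2g15, a lysosomal phospholipase gene, by 1.51 and Gm2a, the GM2 activator gene, by 1.29, while Sumf1, a sulfatase-modifying enzyme gene, fell by 2.06. The calls of Pla2g15, Gm2a and Sumf1 ended without LPS replicate 1 (adjusted p = 0.0818, 0.0977 and 0.0594), among other libraries. With late IL-10, 5 were higher and none lower (3.19% and 0.26% of all genes). Ppt1 rose by 2.02, Fnip2 by 1.35 and Pla2g15 by 1.28, the last call ending when any 1 of 5 of the 6 libraries was left out (adjusted p = 0.0860 to 0.190). Mcoln2 and Mcoln3, neighbouring channel genes that share regions, rose by 1.99 and 2.08, and they also exceeded continuous IL-10 (adjusted p = 0.0133 and 0.0106), though not without continuous replicate 2 or late replicate 1 or 2 (adjusted p = 0.0617 to 0.0959). No test compared these genes with the 35 above.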

How the data were processed

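H3K27ac ChIP-seq of 12 macrophage libraries was analysed. For each consensus region the authors deposited 1 signal value per library. The submitters' processing notes name mm10 with the tools DiffBind, MACS2, Bowtie2 and Trim Galore, with no version or role stated in what was used here. In every library 100% of values were whole multiples of its smallest value (tolerance 0.0001), so the deposited signal equals whole reads times 1 factor per library. No sample column was left unmapped (0).

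Regions were assigned with a RefSeq table of GRCm38.p6. Features whose mean log2 value exceeded the 10th percentile were fitted with limma 3.58.1 in R 4.3.3 (trend, robust) on log2(value + 1) over all 12 libraries, with group as the only term, and p-values were adjusted over all features. Folds on this scale are understated at low values. Bounds use 3 reads in each library of the group at the floor, and cover counting of deposited values only. As an alternative, edgeR 4.0.16 (quasi-likelihood, TMM) on the recovered reads called 2275 genes higher and 1782 lower with LPS. In data simulated for LPS against untreated over 13480 genes, the limma step recovered 52% of 100 changes of 1 log2 unit and 99% of 100 changes of 2 log2 units. The simulated counts had the same relative spread for every gene and no difference between pools. Real spreads were wider at some genes, such as Gaa, not called with LPS at -2.55 (SE 1.29). These shares are therefore not rates for the real libraries.

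Same-numbered libraries deviated together (r = 0.0993 to 0.712, 17 of 18 pairs over 0.1), and the labels name 3 macrophage pools. Pairs of unlike number had r = -0.584 to 0.370, so the ranges overlap. The highest r, 0.712, was between replicate 3 of LPS and of late IL-10, the deepest libraries of their groups. By mean r, 11 of the 12 libraries were closest to their own number. The replicate block was read as a pairing in 5 of the 6 comparisons, not in continuous IL-10 against untreated. The main calls have group as the only term and do not use this pairing, and the block fits are given beside them. Members and lists were chosen with earlier results of these data known. Full values are given for up to 15 genes called in LPS against untreated or in either IL-10 comparison against LPS, by smallest adjusted p, plus Tfeb and the leading gene of any role left out. Values of Ctsa, Cd63, Gaa, Mcoln1 and of single regions of Asah1, Atp6v0a1, Ctsb, Ctsh, Laptm4a and Tpp1 were chosen after they were seen. The input library was not used.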

Additional observations from a re-analysis of the deposited data

Results flagged for a closer look

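Late and continuous IL-10 differed by the test at 4 single regions of the 35 genes. In the internal region of Atp6v0a1, chr11:101051047-101055372, the value was 1.69, 21.6 and 10.8 with continuous and 271, 254 and 140 with late IL-10, a fitted log2 difference of 4.58 (limma adjusted p = 0.0245). In the Ctsh regions chr9:90058409-90062217, chr9:90066281-90068928 and chr9:90074533-90076916, late IL-10 was lower by fitted log2 differences of -2.64, -3.52 and -4.69 (limma adjusted p = 0.0495, 0.0312 and 0.0148). All 3 late libraries lay at 1 read in the last 2 of these, so their fitted sizes depend on the pseudocount, and the deposited values were at least 6.7-fold and 14.0-fold lower. Leaving out 1 library at a time, the Atp6v0a1 call held in 1 of 6 cases and the Ctsh calls in 1, 2 and 3. The largest adjusted p were 0.120, 0.174, 0.115 and 0.0721. With the replicate block all 4 were called, at adjusted p = 0.00321, 0.00912, 0.00739 and 0.00245.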

How the results depend on the processing

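Median reads per region were 18 to 89 across libraries, and the share of changes found at such depths was not tested. Over 63 results for gene sums, 377 of 434 values under other settings kept direction and side of the threshold, 32 were weaker, 21 stronger and 4 reversed. For 45 regions, 200 of 225 were kept. With regions of more than 1 gene left out, Ctss reversed: LPS against untreated 3.75, late IL-10 against LPS -0.32, continuous IL-10 against untreated 2.36, and Hexa reversed in late IL-10 against untreated, at 1.03. Ctss then rests on its small internal region alone. Of values not called, Atp6v0d2 in late IL-10 against LPS turned from -2.32 to 1.66.

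Counts moved as follows. With the replicate block or pairing, continuous IL-10 against LPS gave 3 higher and 1 lower, late IL-10 against LPS 4 and 2, late against continuous 1 and 6. For regions the block gave 8 higher and 4 lower (continuous against LPS) and 2 and 2 (late against LPS). Under the block, although the numbers did not meet the pairing check for these groups, continuous IL-10 against untreated gave 14 lower, Tfeb among them (adjusted p = 0.0211), and 1 higher. Of all 13480 genes, the block called 2288 lower and 1847 higher in that comparison. Median centring gave 0 higher with LPS, 2 higher with continuous IL-10 against LPS, 0 higher and 7 lower for continuous against untreated, 0 higher for late against untreated, and 1 lower region for continuous against LPS. With edgeR, 1 gene and 2 regions were higher for continuous against LPS and 0 genes for late against untreated. With regions of 1 gene only, 2 were higher with LPS, 1 with continuous IL-10 against LPS and 2 with late IL-10 against untreated. A pseudocount of 8 gave 2 lower regions for continuous against LPS. Some counts above and the leave-out counts below have no share of all genes or regions beside them. Those are not read as particular to these genes. The causes were not tested.

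Leaving out 1 library gave 0 to 1 higher and 12 to 20 lower with LPS, 0 to 4 and 0 to 1 for continuous against LPS, 0 to 2 and 0 to 0 for late against LPS, 0 to 1 and 6 to 11 for continuous against untreated, 0 to 1 and 10 to 13 for late against untreated, and 0 to 0 and 0 to 2 for late against continuous. For regions it gave 3 to 7 and 20 to 35, 0 to 8 and 0 to 4, and 0 to 2 and 0 to 1 in the first 3 comparisons.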
